A study of Homo sapiens with 5 samples.

Results

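The 45 genes described here encode the machinery of DNA replication and the enzymes that supply its nucleotides. They were chosen by name, as listed replication symbols, and all 45 were found among the 22885 symbols of the expression table through its RefSeq accessions. All 45 reached 1 FPKM (fragments scaled to transcript length and library size) in at least 1 library, and 34 reached 5 FPKM. They are 45 of the 12914 genes measured at that level. The study asked how LSD1, a histone lysine demethylase encoded by KDM1A, acts in androgen signalling in prostate cancer cells. Its 5 samples, each alone in its group, were an LSD1 siRNA and a control siRNA RNA-seq library of LNCaP, and peak lists from chromatin immunoprecipitation (ChIP-seq) of LSD1 in LNCaP, of H3T6ph (histone H3 carrying a phosphate on threonine 6) in LNCaP and of LSD1 in VCaP. LNCaP and VCaP are human prostate cancer lines with an active androgen receptor. For every group the labels describe 3 days in charcoal-stripped serum, which lacks steroid hormones, ahead of stimulation with an unnamed hormone. The cells of the ChIP samples were not transfected, and passage ranges were the same in all groups.

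Replication starts when the origin recognition complex (ORC), CDC6 and CDT1 load the ring-shaped MCM2 to MCM7 helicase onto DNA, a step that geminin blocks once S phase has begun. CDC45 and the GINS complex then activate the helicase, DNA polymerase alpha with primase starts each strand, and replication factor C (RFC) loads the PCNA clamp that holds polymerases delta and epsilon on DNA. Many of these genes are classic targets of the E2F factors, which switch them on as a cell enters S phase. In LNCaP, androgen is known to drive cell proliferation.

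KDM1A, the target of the siRNA, was at 6.87 FPKM with LSD1 siRNA and 37.0 FPKM with control siRNA, which is 18.6% of control. Marker genes were checked against the labelled cell type. All 8 luminal prostate markers were measured, up to 1941 FPKM with LSD1 siRNA and 2474 FPKM with control siRNA for KLK3, and none of 3 basal or 3 immune markers reached 1 FPKM. Of 3 endothelial and 3 fibroblast markers 1 each did, VWF at 2.38 FPKM with LSD1 siRNA and 1.89 FPKM with control siRNA, and COL1A1 at 11.7 FPKM with LSD1 siRNA and 8.77 FPKM with control siRNA. CDH5 and CD3E, which define endothelial and T cells, were listed at 0 in both. From the steps in which low values rise, the LSD1 siRNA library had about 77.3% of the depth of the control library. With 1 library per group no difference below has a spread between replicates and no p-value was computed from them. Genes are described as lower or higher past a fixed size limit of 0.32 on the scale of log2(FPKM + 1), LSD1 siRNA over control siRNA. That scale understates the change of low genes. In bulk RNA, fewer cells in S phase and less of these RNAs per cell cannot be told apart.

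Most replication genes had a slightly lower value with LSD1 siRNA, and a minority passed the size limit. Of those that did, 4 were in the helicase, and the rest were spread over other role groups. A lower value was found in 43 of 45 genes, against 52.6% of all genes measured, with RPA3 and CDT1 as the exceptions. Of the 45, 10 (22.2%) were lower past the size limit, against 8.19% of all genes and 7.01% of protein-coding genes. None was higher past the size limit, against 6.95% of all genes and 5.68% of protein-coding genes. On that log2 scale none was lower past 1.5-fold, against 2.41% of all genes and 139 of 11751 protein-coding genes. By the plain ratio of FPKM values, CDC6, MCM5 and POLE2 were at 62.5, 64.1 and 62.1% of control, which is past 1.5-fold. The median log2 fold change of the 45 was -0.19, with quartiles at -0.28 and -0.10, where all genes measured had a median of -0.01 and quartiles at -0.15 and 0.12. Summed over the 45 genes, expression was 574 FPKM with LSD1 siRNA and 661 FPKM with control siRNA, which is 86.8% of control. No accession of the 45 genes was called changed in the authors' deposited table, where 0.353% of all accessions were. Of the 71 accessions of these genes that this table tested, 6 (8.45%) had an unadjusted p under 0.05, beside 6.35% of all tested accessions. Those 6 belonged to CDC6, MCM4, MCM5, MCM6 and ORC4, and those of ORC4 went in opposite directions. With LSD1 siRNA 5 of the 6 were lower, beside 726 of 1404 among all tested accessions.

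**Figure D1:**
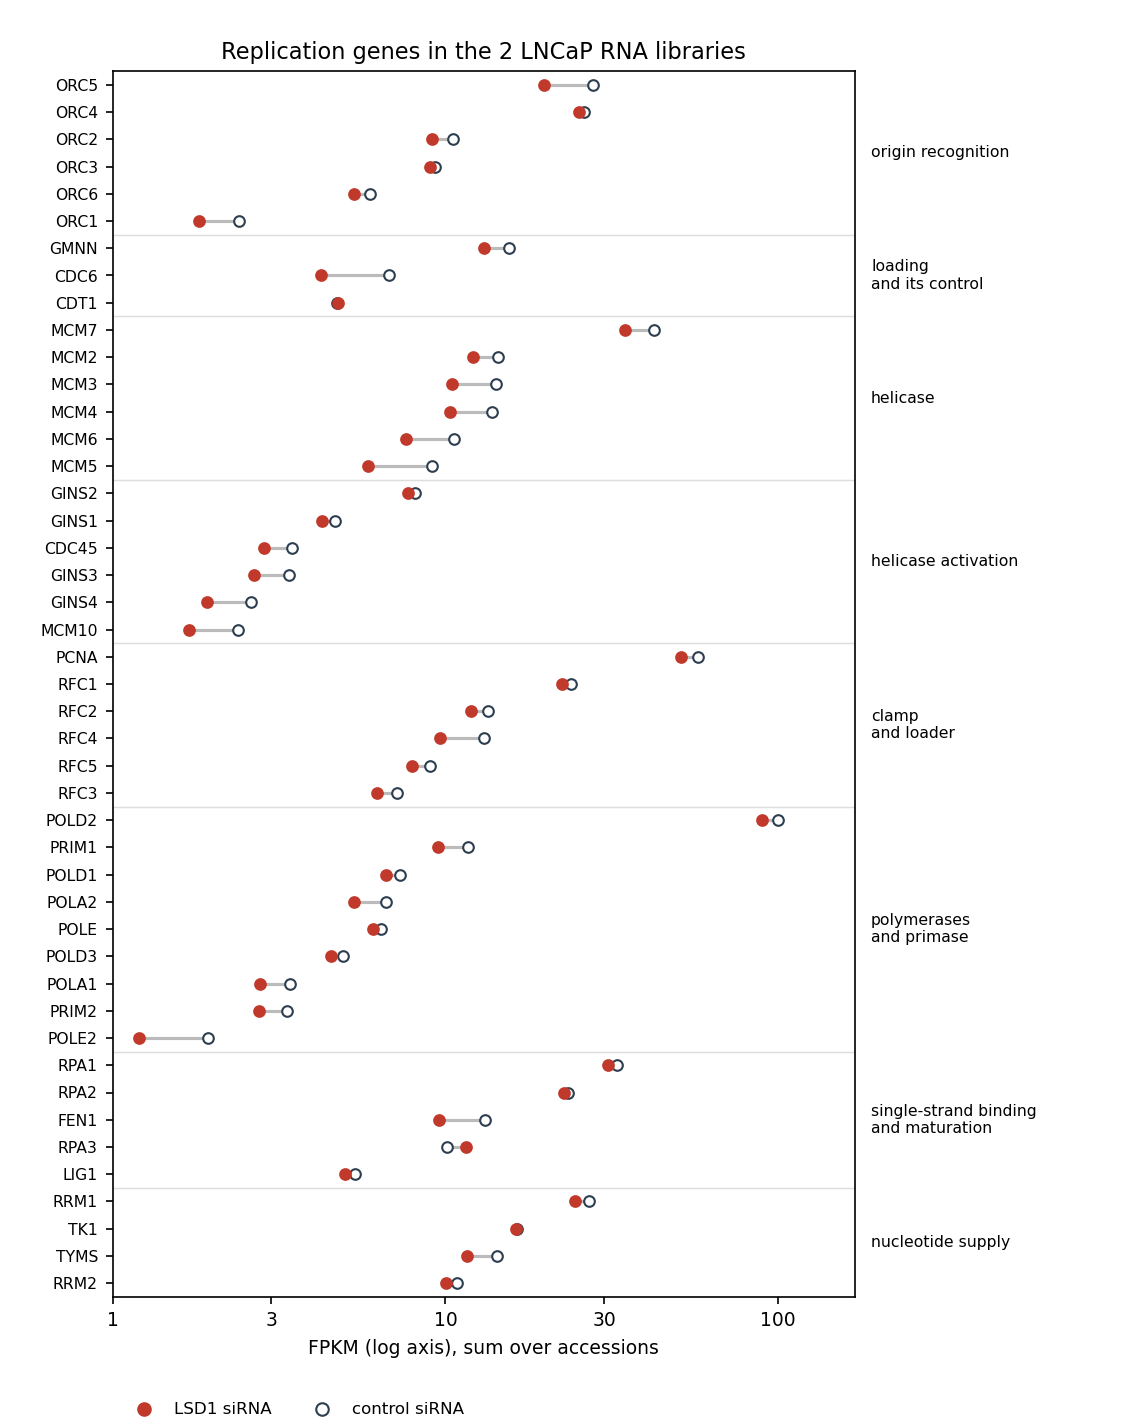
Level of each of the 45 genes in FPKM on a log axis, grouped by role, with filled points for LSD1 siRNA and open points for control siRNA (1 library each). The filled point lies to the left in 43 of 45 genes, and the gaps are widest for CDC6, MCM5 and POLE2.

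The MCM2 to MCM7 helicase, the motor that unwinds DNA, was the role group with the lowest median, at -0.40 over its 6 genes. MCM5 (chr22:35796116-35820495, hg19) was at 5.86 FPKM with LSD1 siRNA and 9.14 FPKM with control siRNA, a log2 fold change of -0.56. MCM6 was at 7.61 FPKM with LSD1 siRNA and 10.6 FPKM with control siRNA (log2 -0.44). MCM3 was at 10.5 FPKM with LSD1 siRNA and 14.2 FPKM with control siRNA (log2 -0.41). These 3 subunits kept between 64.1 and 73.7% of their control level. MCM4 was at 10.3 FPKM with LSD1 siRNA and 13.8 FPKM with control siRNA (log2 -0.38), and is the last of the 4 subunits past the size limit. MCM7 was at 34.7 FPKM with LSD1 siRNA and 42.3 FPKM with control siRNA (log2 -0.28, or -0.11 with its highest accession alone). MCM2 was at 12.1 FPKM with LSD1 siRNA and 14.4 FPKM with control siRNA (log2 -0.23). All 6 subunits were thus lower, and their summed level was 81.1 FPKM with LSD1 siRNA and 104 FPKM with control siRNA, or 77.6% of control. The authors' deposited table gives a p of 0.0109 and a q of 0.395 for MCM5, and a p of 0.0324 and a q of 0.656 for MCM6. MCM7 stood above the other subunits per length of transcript in both libraries, although the complex holds the subunits in equal number. Its interval also holds 6 other symbols, among them the microRNA genes MIR106B, MIR93 and MIR25, so its level is less certain.

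Loading factors differed from each other. CDC6 (chr17:38444146-38459413, hg19), the ATPase that helps ORC load the helicase, had the largest change of the 45 on the log2(FPKM + 1) scale, at 4.24 FPKM with LSD1 siRNA and 6.78 FPKM with control siRNA. Its log2 fold change was -0.57, and 1.23% of measured protein-coding genes were lower still. For CDC6 the authors' deposited table gives a p of 0.00853 and a q of 0.351. CDT1, its partner in loading, was at 4.76 FPKM with LSD1 siRNA and 4.73 FPKM with control siRNA (log2 0.01), so the libraries were nearly level. GMNN, which encodes geminin, the inhibitor of CDT1, was at 13.1 FPKM with LSD1 siRNA and 15.6 FPKM with control siRNA (log2 -0.23, or -0.35 and past the size limit with its highest accession alone).

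Promoters of some of the most changed genes are shown here because replication genes share a known sequence feature, the E2F word. The sequences run from 250 bases before to 50 bases after the gene start, from the RefSeq table of build GRCh38.p14, which held 39 of the 45 genes. MCM4, MCM5, GINS4, POLD3, RPA2 and RPA3 were missing. They are neither shown nor counted below, although MCM5 and MCM4 were past the size limit. The words searched on both strands were TTTCCCGC, TTTGGCGC, TTTCGCGC and TTTGCCGC, and matches are in capitals. Words on opposite strands can overlap, and each is counted. The genes are the 4 with the largest change at 10 FPKM or more in either library, then CDC6, added after its value was seen because its change was the largest on that scale. Positions are MCM6 at chr2:135876394-135876693 on the minus strand, MCM3 at chr6:52284693-52284992 on the minus strand, FEN1 at chr11:61792661-61792960 on the plus strand, ORC5 at chr7:104207964-104208263 on the minus strand and CDC6 at chr17:40287629-40287928 on the plus strand.
MCM6: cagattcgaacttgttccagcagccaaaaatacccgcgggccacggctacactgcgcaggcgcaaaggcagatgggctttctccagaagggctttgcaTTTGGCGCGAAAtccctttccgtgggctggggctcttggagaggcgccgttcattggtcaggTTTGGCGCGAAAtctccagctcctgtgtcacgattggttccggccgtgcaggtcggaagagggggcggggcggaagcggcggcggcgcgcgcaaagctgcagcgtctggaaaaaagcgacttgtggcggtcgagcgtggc
MCM3: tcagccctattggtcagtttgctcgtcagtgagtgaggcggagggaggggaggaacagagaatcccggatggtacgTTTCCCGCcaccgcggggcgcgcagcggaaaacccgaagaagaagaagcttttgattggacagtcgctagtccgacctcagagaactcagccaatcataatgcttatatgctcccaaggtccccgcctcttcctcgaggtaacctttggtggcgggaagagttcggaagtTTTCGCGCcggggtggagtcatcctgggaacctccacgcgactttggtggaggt
CDC6: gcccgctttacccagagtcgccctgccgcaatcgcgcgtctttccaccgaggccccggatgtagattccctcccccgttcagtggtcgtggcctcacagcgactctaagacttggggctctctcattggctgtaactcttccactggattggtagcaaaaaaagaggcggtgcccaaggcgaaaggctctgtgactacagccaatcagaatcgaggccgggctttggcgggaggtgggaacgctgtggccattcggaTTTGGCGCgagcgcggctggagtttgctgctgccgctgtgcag
FEN1: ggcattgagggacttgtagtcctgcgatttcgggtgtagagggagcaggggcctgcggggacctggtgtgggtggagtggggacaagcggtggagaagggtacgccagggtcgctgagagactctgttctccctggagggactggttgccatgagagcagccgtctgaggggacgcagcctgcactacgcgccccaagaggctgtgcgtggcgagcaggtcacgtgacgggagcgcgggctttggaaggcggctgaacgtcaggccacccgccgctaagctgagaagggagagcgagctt
ORC5: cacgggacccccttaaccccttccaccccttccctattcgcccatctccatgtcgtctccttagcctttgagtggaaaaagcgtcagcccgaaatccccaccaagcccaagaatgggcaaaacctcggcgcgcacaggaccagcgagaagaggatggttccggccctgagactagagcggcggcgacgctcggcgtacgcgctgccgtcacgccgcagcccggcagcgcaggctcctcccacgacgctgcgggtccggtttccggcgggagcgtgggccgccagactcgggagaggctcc

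The MCM6 promoter held 4 matches in 2 copies of a 12-base stretch that reads as an E2F word on both strands, beginning at -152 and -90 from the gene start. MCM3 had 2 matches, at -174 and -4, and CDC6 had 1, beginning at base 8 of the gene. FEN1 and ORC5 had none in this window. Over all replication genes with a promoter, 16 of 39 (41.0%) held at least 1 E2F word, against 5.39% of 9720 promoters of measured protein-coding genes and 3.31% of all 35116 promoters in the table. The CCAAT word, bound by NF-Y, was in 22 of the 39 (56.4%), against 36.6% of the protein-coding promoters. The word TTTGAA, a core of the element known from mitosis genes, was on either strand in 1 of the 39 (2.56%) and in 24 of 32 mitosis gene promoters, against 9.66% of the protein-coding promoters. The 16 genes with an E2F word had a median log2 fold change of -0.23 with 4 past the size limit, and the 23 without had a median of -0.16, also with 4 past the size limit. A match is a run of letters and not a measured binding site.

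ORC marks origins throughout the cell cycle, and its 6 subunits had a median log2 fold change of -0.16. ORC5 was at 19.8 FPKM with LSD1 siRNA and 27.8 FPKM with control siRNA (log2 -0.47), the only subunit past the size limit when accessions were summed. ORC1, the subunit known to be cell-cycle regulated in human cells, was at 1.82 FPKM with LSD1 siRNA and 2.40 FPKM with control siRNA (log2 -0.27). ORC2 was at 9.14 FPKM with LSD1 siRNA and 10.6 FPKM with control siRNA (log2 -0.19). With accessions summed, the other subunits lay between -0.27 and -0.04. With the highest accession of each gene alone, ORC4 was at -0.51 beside ORC5 at -0.50, and ORC1 was at 1.49. On the same basis ORC2, ORC3 and ORC6 were at -0.02, -0.15 and -0.06. With accessions summed, ORC3, ORC4 and ORC6 were at log2 fold changes of -0.04, -0.04 and -0.13. ORC4 and ORC5 had the highest levels of the complex in both libraries and ORC1 the lowest.

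Genes that turn the loaded helicase into a moving one were low in level in both libraries. The highest was GINS2, at 7.71 FPKM with LSD1 siRNA and 8.13 FPKM with control siRNA (log2 -0.07). MCM10, a factor needed to start unwinding, was at 1.70 FPKM with LSD1 siRNA and 2.38 FPKM with control siRNA (log2 -0.33), just past the size limit, and at -0.32, just inside it, with differences centred on the median of protein-coding genes. GINS4 was at 1.92 FPKM with LSD1 siRNA and 2.61 FPKM with control siRNA (log2 -0.31), just inside it. With a pseudocount of 0.1, GINS4 was at -0.42 and GINS3 at -0.34, both past the size limit. GINS3 was at -0.26, CDC45 at -0.21 and GINS1 at -0.10 on the same log2 scale. All 6 genes of this step were lower with LSD1 siRNA, with a median of -0.24.

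**Figure D2:**
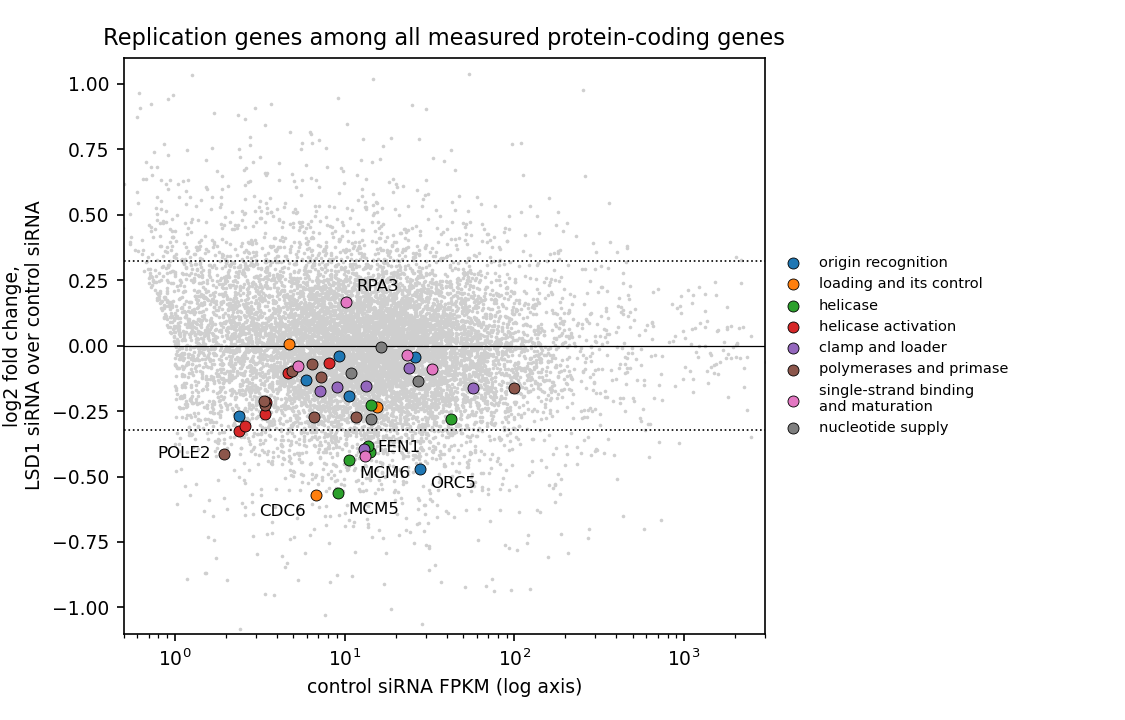
Log2 fold change of each gene (vertical) against its control siRNA level in FPKM (log axis), with the 45 replication genes coloured by role over the 11751 measured protein-coding genes in grey. Dotted lines mark the size limit of 0.32, 35 grey genes lie outside the axes, and 43 of the coloured points lie below 0 over the whole range of levels.

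At the fork, the sliding clamp PCNA was at 51.1 FPKM with LSD1 siRNA and 57.4 FPKM with control siRNA (log2 -0.16). Of the subunits of its loader, RFC4 was at 9.67 FPKM with LSD1 siRNA and 13.0 FPKM with control siRNA (log2 -0.39), past the size limit. RFC1, RFC2, RFC3 and RFC5 lay between -0.17 and -0.08. RFC4 was thus the subunit of the loader with the lowest fold change. Its interval is shared with EIF4A2, a translation factor gene, and with 5 small RNA genes.

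Polymerase and primase genes were all lower, 9 of 9, with a median of -0.21, and 1 passed the size limit. That gene was POLE2, the second subunit of polymerase epsilon, at 1.20 FPKM with LSD1 siRNA and 1.94 FPKM with control siRNA (log2 -0.42). For this low gene the log2 value was -0.64 with a pseudocount of 0.1 and -1.05 with the highest accession alone. POLE, which encodes the catalytic subunit of the same enzyme, was at 6.04 FPKM with LSD1 siRNA and 6.39 FPKM with control siRNA (log2 -0.07). The 4 genes of polymerase alpha and primase lay close together, with POLA1 at -0.23, PRIM1 at -0.27, PRIM2 at -0.21 and POLA2 at -0.27. POLA2 was at 5.33 FPKM with LSD1 siRNA and 6.65 FPKM with control siRNA. Of polymerase delta, POLD2 was at 89.1 FPKM with LSD1 siRNA and 99.8 FPKM with control siRNA (log2 -0.16), the highest level of the 45 genes. POLD1 was at -0.12 and POLD3 at -0.10.

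Genes of single-strand binding and fragment joining were less uniform. FEN1, the nuclease that trims Okazaki fragments, was at 9.54 FPKM with LSD1 siRNA and 13.1 FPKM with control siRNA (log2 -0.42). LIG1, the ligase that seals them, was at 5.01 FPKM with LSD1 siRNA and 5.34 FPKM with control siRNA (log2 -0.08). Of the single-strand binding protein RPA, RPA3 was at 11.5 FPKM with LSD1 siRNA and 10.1 FPKM with control siRNA (log2 0.17), the highest fold change of the 45. RPA2 was at 22.7 FPKM with LSD1 siRNA and 23.3 FPKM with control siRNA (log2 -0.04), and RPA1 was at a log2 fold change of -0.09. RPA, which also serves in DNA repair, thus had both higher and lower subunits, none past the size limit.

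The 4 nucleotide supply genes of the set had a median of -0.12 and none passed the size limit. TYMS, which makes thymidylate, was at 11.6 FPKM with LSD1 siRNA and 14.3 FPKM with control siRNA (log2 -0.28). TK1, the salvage thymidine kinase and a marker of proliferating cells, was at 16.3 FPKM with LSD1 siRNA and 16.4 FPKM with control siRNA (log2 -0.01, or 0.01 when centred on the median of protein-coding genes). The ribonucleotide reductase subunits RRM1 and RRM2 were at -0.14 and -0.11. The higher of the 2 RRM2 accessions is marked as low data in the authors' deposited table, so the RRM2 level is less certain. That accession was at 8.85 FPKM with LSD1 siRNA and 10.7 FPKM with control siRNA (log2 -0.25 alone). The other accession was at 1.17 FPKM with LSD1 siRNA and 0.181 FPKM with control siRNA.

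Other genes of the same pathways were described for context from lists chosen with earlier results of these data known. Among 36 accessory replication genes 28 had a lower value and the median was -0.17. In this list 7 (19.4%) were lower past the size limit, among them MCM8 (log2 -0.55), CHTF8 (-0.42) and the nuclease gene DNA2 (-0.42), and 1 was higher, POLD4, at 54.7 FPKM with LSD1 siRNA and 40.0 FPKM with control siRNA (log2 0.44). With the highest accession alone CHTF8 was at -0.18, inside the limit, and MCM8 at -0.93. POLD4 encodes the smallest subunit of polymerase delta, a protein known to be degraded in S phase. Among 38 other nucleotide supply genes 34 had a lower value, 10 (26.3%) were lower past the size limit, none was higher past it, and the median was -0.18. DCTPP1, which hydrolyses deoxycytidine triphosphate and its modified forms, was at 22.9 FPKM with LSD1 siRNA and 62.9 FPKM with control siRNA (log2 -1.42). PRPS2, which makes the ribose donor of nucleotide synthesis, was at -0.58 and the purine synthesis gene ATIC at -0.44. The purine synthesis genes PPAT, PFAS and PAICS were also among the 10, at -0.36, -0.36 and -0.34, and are named after their values were seen. Other purine synthesis genes of the list were inside the limit. These were GART (-0.21), ADSL (-0.04), GMPS (-0.11), IMPDH1 (-0.24), IMPDH2 (-0.11) and ADSS2 (-0.17). Of the 38 only DCTPP1 was called changed by the authors' deposited table, with a q of 8.61e-07.

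Among 38 measured S phase control genes 23 had a lower value and the median was -0.07, with 4 lower and 1 higher past the size limit. The 4 are 10.5% of the list, near the 8.19% of all genes. The CDC7 kinase gene, whose product fires loaded origins, was at 3.51 FPKM with LSD1 siRNA and 5.01 FPKM with control siRNA (log2 -0.42). The phosphatase gene CDC25A was at -0.40 and E2F5 at -0.90. With the highest accession alone CDC7 was at -0.79 and E2F5 at -0.47. WEE1, a kinase gene that restrains entry into mitosis, was at 43.9 FPKM with LSD1 siRNA and 31.2 FPKM with control siRNA (log2 0.48). Of 41 listed, E2F2, CCND2 and CDK6 did not reach 1 FPKM. Mitosis genes had a median of -0.04 over 39 genes, with 27 at a lower value and 4 lower past the size limit, which is 10.3% and again near the share of all genes. Those 4 were CENPN (log2 -0.81), SPC25 (-0.41), MAD2L1 (-0.39) and CKS1B (-0.33), of which the authors' deposited table called CENPN, with a q of 0.0340. CKS1B was at -0.32, just inside the limit, when centred on the median of protein-coding genes. The differences between these lists and the 45 genes were not tested.

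**Figure D3:**
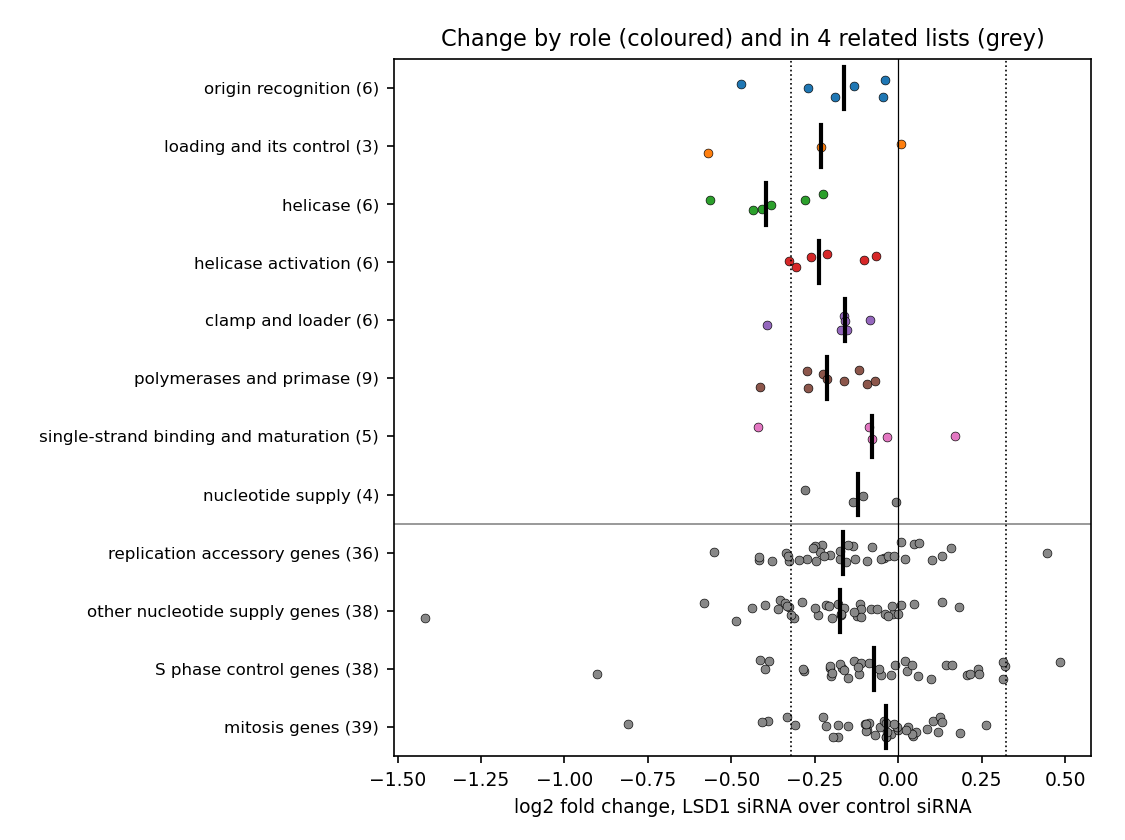
Log2 fold change of each measured gene in the 8 role groups (coloured) and 4 related lists (grey), with the number of genes in brackets, thick lines for medians and dotted lines for the size limit. The helicase group has the lowest median, at -0.40, and the mitosis list lies nearest to 0, at -0.04.

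Most of the 45 genes, 25, were listed under several accessions, and the split between them was less steady than the sum. In 3 genes some accessions were higher and others lower past the size limit, namely ORC1, ORC4 and POLE2. In ORC1, 1 accession was at 1.82 FPKM with LSD1 siRNA and under 0.01 FPKM with control siRNA, while the other 2 were under 0.01 FPKM with LSD1 siRNA and at 0.822 and 1.58 FPKM with control siRNA. Nearly the whole signal of this low gene was thus given to another accession in each library. In POLE2, 1 accession was at 0.885 FPKM with LSD1 siRNA and under 0.01 FPKM with control siRNA, and another was at 0.249 FPKM with LSD1 siRNA and 1.59 FPKM with control siRNA. In ORC4, 1 of 6 accessions was at 5.25 FPKM with LSD1 siRNA and 0.831 FPKM with control siRNA, with a p of 0.0184 and a q of 0.512 in the authors' deposited table. The summed ORC4 level was 25.2 FPKM with LSD1 siRNA and 26.1 FPKM with control siRNA. With the highest accession alone ORC1 would be at 1.49 and ORC4 at -0.51 on the log2 scale, so the value of each depended on how its accessions were combined. Over the 20 genes with 1 accession, 18 had a lower value and the median was -0.17.

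**Figure D4:**
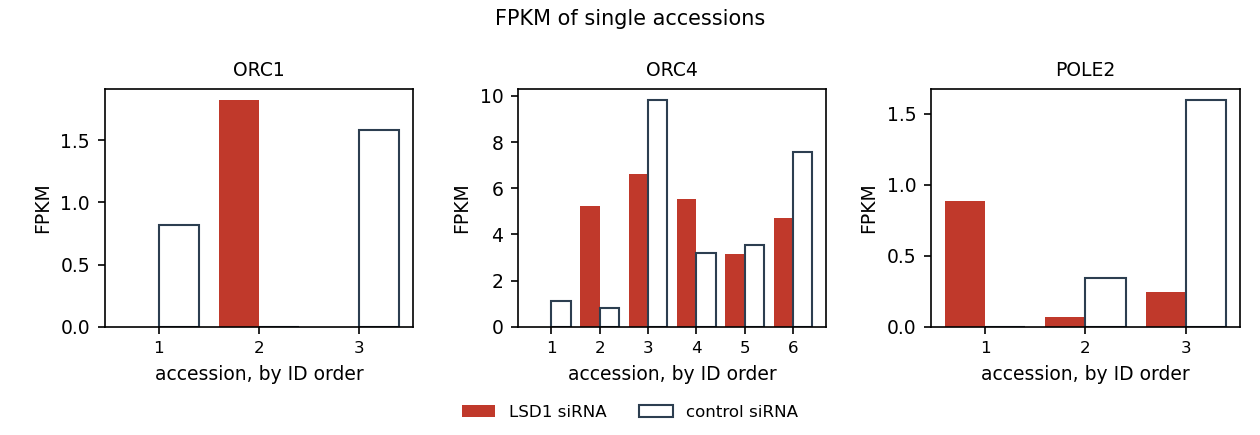
FPKM of each accession of ORC1, ORC4 and POLE2, with filled bars for LSD1 siRNA and open bars for control siRNA (1 library each). Where no bar shows, the value is under 0.01 FPKM, and the library with the taller bar changes from accession to accession within a gene.

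Called peaks were then set beside the genes, as peaks within 20 kb of the gene interval in the table. All peak positions are in build hg19. For LSD1 in LNCaP, 14 of 45 genes (31.1%) had a peak nearby, against 41.2% of all genes. For H3T6ph in LNCaP, 7 of 45 (15.6%) did, against 17.8%. For LSD1 in VCaP, 18 of 45 (40.0%) did, against 41.2%. These shares are near the background or below it, and gene intervals were of like size, with a median of 32.7 kb for the 45 and 33.0 kb for protein-coding genes. Of the 45, 19 had no peak of any list within 20 kb, against 35.4% of all genes, and MCM3, MCM5, MCM6 and FEN1 were among them. ORC4, POLA2 and POLE2, 3 of the 45, had a peak of all 3 lists nearby, against 7.26% of all genes. The authors gave each peak a score, used here only for ranks within a list.

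The genes lower past the size limit were found both with and without a peak nearby. Of the 14 genes with an LSD1 peak of LNCaP, 3 were lower past the size limit (ORC5, MCM4 and POLE2), and of the 31 without, 7 were. For H3T6ph these were 3 of 7 genes with a peak and 7 of 38 without, and for LSD1 in VCaP 3 of 18 with and 7 of 27 without. No such split of all genes is given beside these counts. The median log2 fold changes were -0.23 with an LSD1 peak of LNCaP and -0.16 without. They were -0.27 and -0.17 for H3T6ph, and -0.22 and -0.16 for LSD1 in VCaP. None of these differences was tested. For LSD1 in LNCaP the intervals had medians of 40.2 kb for genes with a peak and 31.6 kb for those without. These were 35.7 and 32.2 kb for H3T6ph, and 38.2 and 24.4 kb for LSD1 in VCaP. MCM7 lay just outside the limit, with its nearest LSD1 peak of LNCaP at 21.2 kb.

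Peaks at the very end of a gene interval, within 1 kb, were few. LSD1 in LNCaP had one at 1 of 45 genes (2.22%), against 8.68% of all genes, H3T6ph at 1 (2.22%), against 2.30%, and LSD1 in VCaP at 6 (13.3%), against 13.9%. The LNCaP LSD1 peak, at chr7:103766523-103767590, lay at the low-coordinate end of ORC5, where its transcript finishes by its RefSeq strand. At the starting ends, LSD1 of VCaP had peaks at GMNN (chr6:24774906-24776206), MCM10 (chr10:13202964-13203490) and POLA2 (chr11:65028406-65030911). The peak at CDC6 (chr17:38459487-38460280) lay 0.074 kb past its finishing end. At RPA2 an H3T6ph peak of LNCaP (chr1:28241204-28241644) and an LSD1 peak of VCaP (chr1:28240537-28241397) overlapped at the high-coordinate end. The sixth gene, TYMS, shares its interval with CLUL1 and ENOSF1, so the end need not be its own.

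A single site met all 3 lists, below the low-coordinate end of POLE2. It held an LSD1 peak of LNCaP at chr14:50108131-50109158, 1.11 kb from the interval, an H3T6ph peak at chr14:50108484-50108927 and an LSD1 peak of VCaP at chr14:50108122-50109103. By score the LSD1 peaks ranked high in their lists, at percentile 96.7 in LNCaP and 97.1 in VCaP, and the H3T6ph peak at 67.6. By its RefSeq strand POLE2 finishes at this end, so the site lies past its end and not at its start. The highest-ranking LSD1 peak of LNCaP near any of the 45 genes, at percentile 99.0, lay inside the RPA3 interval (chr7:7819205-7820195) and also met an LSD1 peak of VCaP. The RPA3 interval is wide, at 242 kb, and this peak lay 98.7 kb from its nearer end. An interval can span overlapping genes, so the peak need not lie in RPA3 itself. Inside the PCNA interval LSD1 of LNCaP had a peak at chr20:5100600-5101136, and inside MCM2 one at chr3:127330957-127331516. The peak near ORC4 lies in an interval of 668 kb that also spans ACVR2A and MBD5, and cannot be tied to ORC4.

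**Figure D5:**
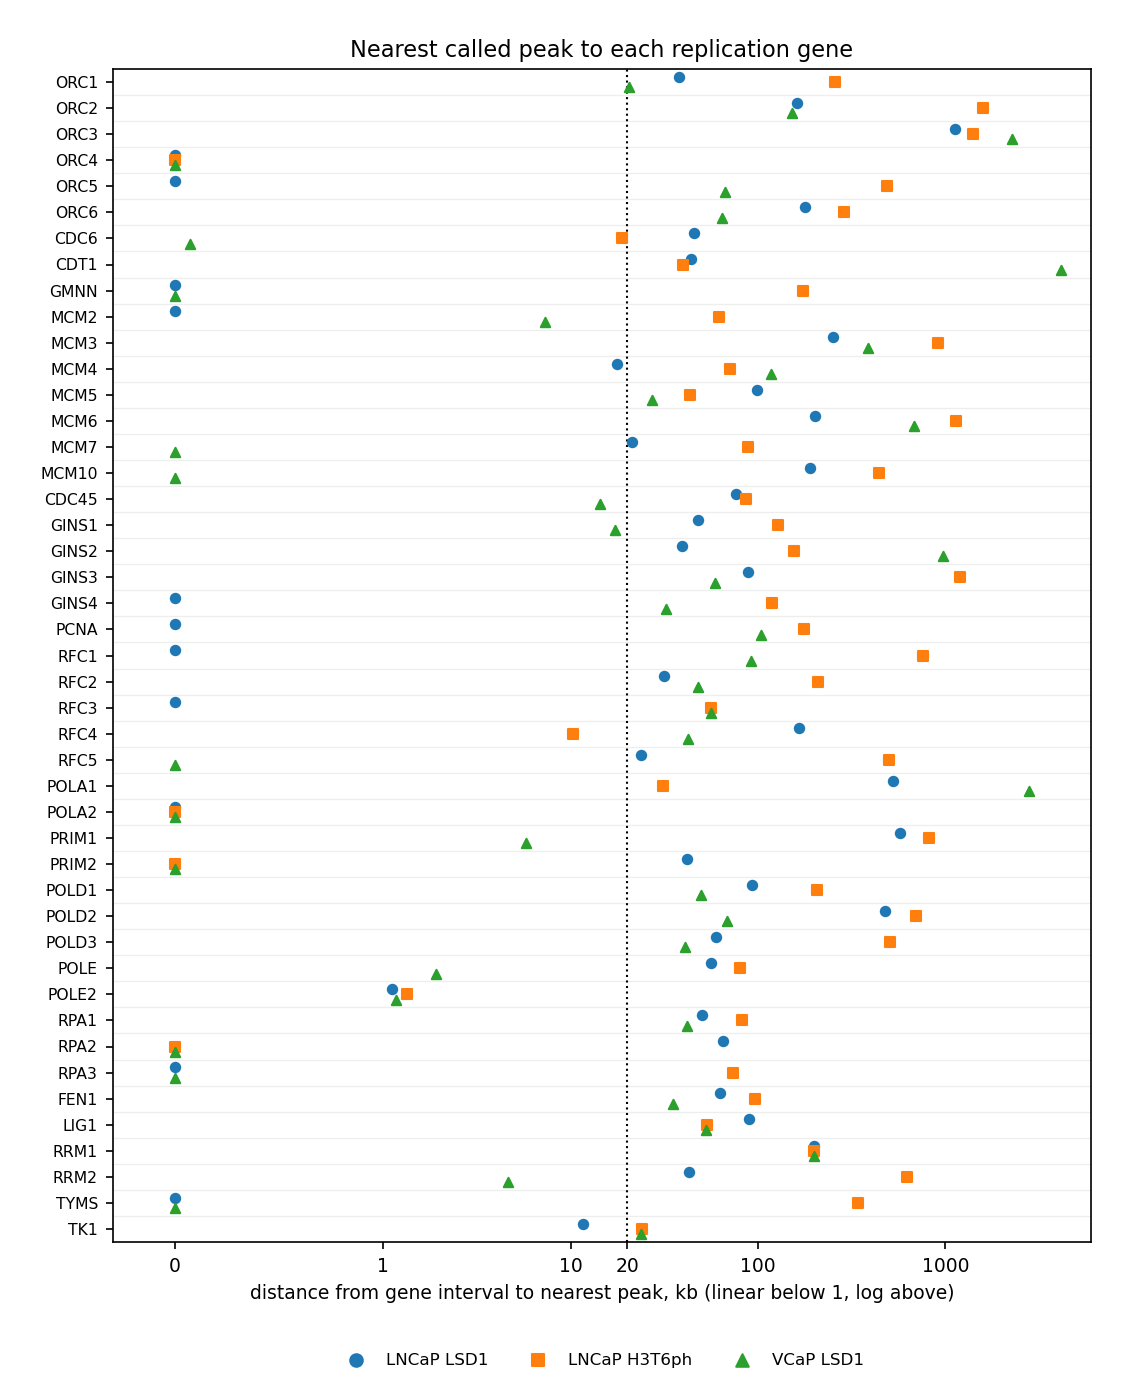
Distance in kb from each gene interval to the nearest called peak of LSD1 in LNCaP (circles), H3T6ph in LNCaP (squares) and LSD1 in VCaP (triangles), where 0 means inside or overlapping and the axis is linear below 1 kb and log above. The dotted line marks 20 kb, and 19 of 45 genes have no point left of it.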

How the data were processed

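Expression was deposited as FPKM per RefSeq accession, 1 value per library, by the authors. No file header names the unit, and it was taken from the Cuffdiff column layout. Tools named, per the submitters' processing notes, are Cuffdiff 2.0.1, MACS2, TopHat2 2.0.4 and Bowtie2 2.0.0, with build hg19. The p-values and q-values of the authors' deposited table were copied, and each peak carries a score that the authors deposited without stating its scale. Each ChIP sample has a peak list of its own.

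Of 40253 accessions, 38930 (96.7%) were matched to a symbol through the RefSeq table of GRCh38.p14, and the other 1323 were not used. FPKM was summed per symbol, and 42 genes with a failed accession were left out. A gene was kept where at least 1 library reached 1 FPKM, which left 12914 genes, 11751 of them protein-coding. Differences used a pseudocount of 1 and a size limit of 0.32 on the log2 scale, without a test. Intervals can span overlapping genes and carry no strand; strand came from the RefSeq promoter table. The RNA kit, per the labels' protocols, does not mark strand. Read totals were not given, so precision per gene was not computed. The genes and lists were chosen with earlier results of these data known. In each role group genes were named from the largest change down until all at 10 FPKM or more past the size limit were named, at least 2 per group, with genes that had a peak at an end, and the 2 to 4 largest of other lists, of which 1 is not reported here. Python 3.11.15 and pandas 2.3.3 were used, and the scripts were tested on simulated data.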

Additional observations from a re-analysis of the deposited data

How the results depend on the processing

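The size limit was 0.32 on the log2 scale. With 1 library per group no value has a replicate check. No paired analysis was possible because each group holds 1 sample. The count of 10 replication genes lower past the size limit became, on the log2(FPKM + 1) scale, 28 at 1.1-fold, 0 at 1.5-fold and 4 of the 20 genes with 1 accession, a subset added after seeing the data in which 18 had a lower value. It lay between 8 (of the 34 genes at 5 FPKM or more) and 13 under another pseudocount, filter, centring or choice of accession. The share of all genes was not computed past 1.1-fold or under another pseudocount, filter, centring or choice of accession. Counts at those settings, here and in the lists below, thus have no background. The count of genes higher was 1 at 1.1-fold and 1 with the highest accession alone, which was ORC1. Accessory genes lower past the size limit (7) became 3 at 5 FPKM or more, 20 at 1.1-fold and 0 at 1.5-fold. Other nucleotide supply genes (10) became 22 and 1 at those folds, S phase control genes (4) 14 and 1, and mitosis genes (4) 11 and 1. With a pseudocount of 0.1 the S phase control count was 7 and KDM1A was at -2.41. Genes with a peak within 50 kb numbered 24 for LSD1 in LNCaP, 11 for H3T6ph and 28 for LSD1 in VCaP, beside 58.0, 27.1 and 56.5% of protein-coding genes. Within 1 kb of an end they numbered 1, 1 and 6. The higher-scoring peaks of the H3T6ph list, those at or above its median score, left 2 (4.44%), beside 9.69% of protein-coding genes. The median of the 45 genes stayed between -0.21 and -0.16 under every alternative run. Of single genes named, 17 of 61 moved by over 0.1 with the highest accession alone and 8 with a pseudocount of 0.1.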
